A study of Xenopus laevis with 8 samples.

Results

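The Ventx and Msx homeobox genes of Xenopus laevis were followed in foregut endoderm that had been cultured with or without mesoderm. They were found by the gene name on the deposited array table, read without regard to case and with the homeolog suffix dropped, together with the older Xenopus names that the RefSeq gene table lists for them. This gave 9 of 15491 probe sets other than controls, for 5 of the 6 genes sought. Ventx1.1 (PV.1 in the file), ventx2.2 (xom-A) and msx1 had 1 probe set each, while ventx2.1 and msx2 had 3 each. Of the 3 for ventx2.1, 1 carried the older name Xbr-1b and 2 carried a gene ID that RefSeq pairs with ventx2.1. Ventx1.2 was matched to no probe set and was not analysed here.

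RNA was measured on 8 Affymetrix arrays, 1 per sample, as 4 sets that each hold both culture conditions. Foregut explants were taken at stage 15 and grown in 0.5X MBS, a salt solution, to stage 23. In one condition the endoderm was grown by itself. In the other the explant stayed intact, mesoderm included, and its endoderm was separated at the end. The sources used here do not state the genotype of the embryos or whether a set is a clutch, a day or a pool of explants, so p-values measure only the spread between these samples, which may be technical. Because the endoderm alone was separated at the start and the other endoderm at the end, time of separation and presence of mesoderm cannot be told apart. In tissue RNA such as this, fewer cells that express a gene and less of its RNA per cell cannot be told apart either.

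Ventx proteins are homeodomain repressors that act ventrally, against the Spemann organizer. Bone morphogenetic proteins (BMPs) bind serine/threonine kinase receptors, these phosphorylate Smad1 and its relatives, and the Smads switch on ventx genes in the ventral gastrula, where Ventx proteins hold down organizer genes such as gsc. Msx1 and Msx2 are homeodomain repressors that also respond to BMP, and are best known from ventral mesoderm, neural crest, the dorsal midline and limb buds. In the RefSeq assembly Xenopus_laevis_v10.1 the genes ventx3.2, ventx1.2, ventx2.2, ventx1.1 and ventx2.1 follow each other in this order on chromosome 7L, with no other annotated gene between them, and on 7S with 1 unnamed gene among them. Msx1 and msx2 lie on other chromosomes.

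All values are RMA intensities, the authors' normalized brightness per probe set on a linear scale. A difference is the log2 value of the endoderm grown with mesoderm less that of the endoderm grown alone, averaged over 4 sets, and ± gives the SD over those sets. Array medians lay between 129 and 132. A total of 44 negative control probe sets, to sequences foreign to frog, gave the background: the brightest of them read between 69.6 and 109 on the different arrays. Probe sets bind with different strength, so their levels are compared between samples and not with each other. The labelled tissue was checked against 12 measured endoderm markers, of which 7 lay above every negative control on all 8 arrays, among them the endoderm protease-like gene darmin and the forkhead factor foxa1, while hhex and cer1, anterior endoderm genes, exceeded all of them on 0 arrays. The summed intensity of the 12 was 17803 to 22323 alone and 18326 to 20520 with mesoderm. Samples of the same set deviated from their condition's mean together, so results are also given with the set as a block, called within sets. Without the set in the model the adjusted p was 1.00 for each of the 9 members.

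Within sets, ventx2.2 rose 2.26-fold with mesoderm and was the 1 probe set of the 9 to pass at an adjusted p under 0.05 over all probe sets in limma, a linear model with pooled variances. Ventx1.1, the broad ventx2.1 probe set and one of the msx2 probe sets were also higher in 4 of 4 sets, at 1.55-fold, 1.68-fold and 1.49-fold, but did not pass. Msx1 differed by 0.14. Across all tested probe sets, 0.258% were called higher within sets and 0.129% lower, and of the 9 members 1 was called higher and 0 lower. Without the set in the model limma called 0 members in either direction, against 0% of all probe sets each way. At an unadjusted p under 0.05 it then had 1 member higher (an msx2 probe set) and 0 lower, beside 1.31% and 1.17% of all probe sets. Within sets, 4 members were higher and 0 lower at that unadjusted p, beside 3.93% and 5.42%. Being higher in all 4 sets was seen for 4 of the 9 members and for 8.35% of all probe sets, and being lower in all 4 sets for 0 members and 10.3%. No member had groups that did not overlap, which 1.03% of all probe sets showed on the higher side. The median difference of the 9 members was 0.31, beside 0.01 over all probe sets.

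**Figure D1:**
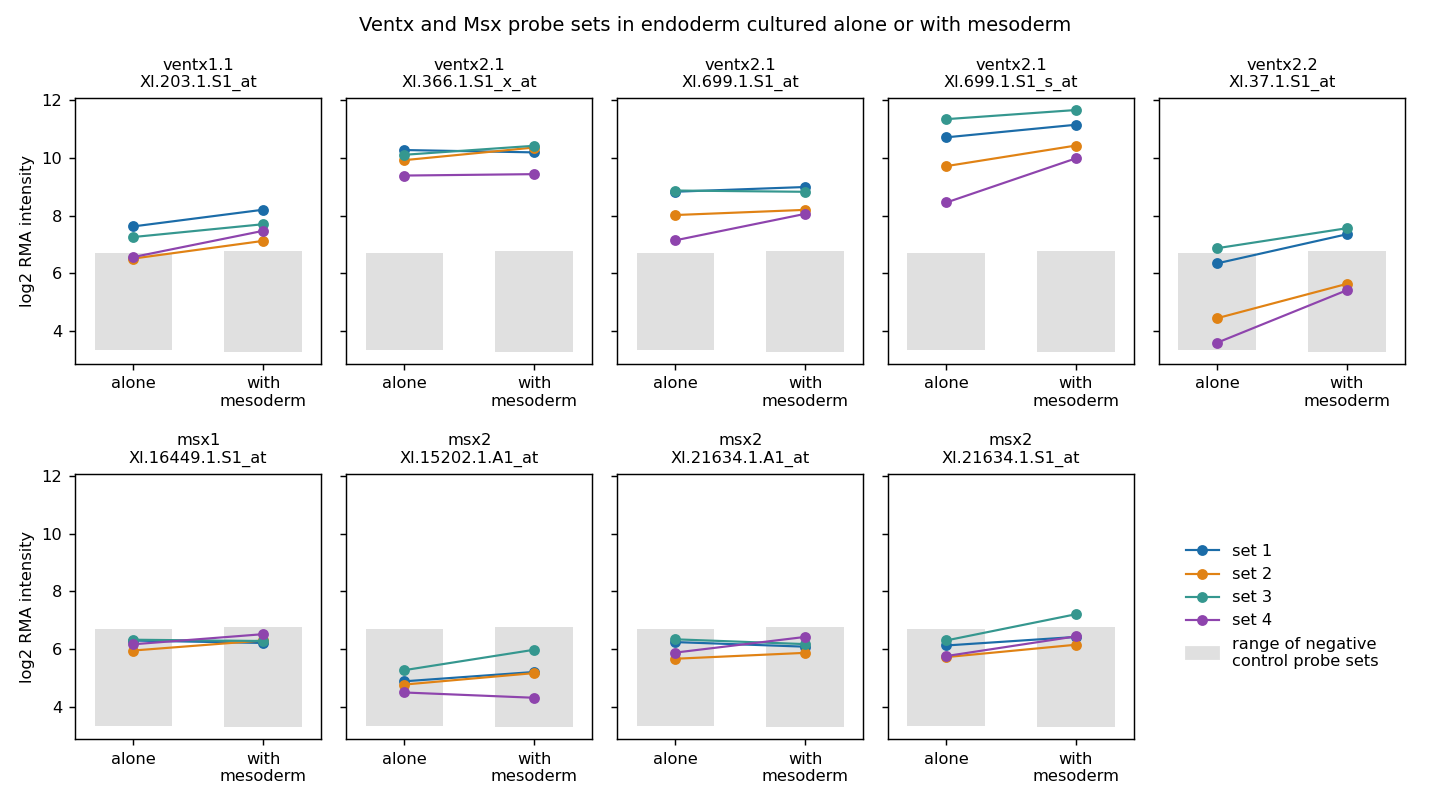
Log2 RMA intensity (vertical axis) of the 9 probe sets in endoderm cultured alone and with mesoderm, with 1 line for each of the 4 sets. Grey bands span the lowest to the highest of the 44 negative control probe sets over the 4 arrays of a condition. The 5 upper panels hold the Ventx probe sets, of which ventx2.2 lies within the band in sets 2 and 4 and, alone, in set 1, and ventx1.1 alone in sets 2 and 4, and the 4 lower panels hold the Msx probe sets, most of whose values lie within the band.

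Ventx2.2 is a repressor of organizer genes and a direct target of BMP-activated Smads. RefSeq lists the names Xom and vox with both ventx2.2 and ventx2.1, while xom-A, the name in the file, stands with ventx2.2 alone. Cultured alone, its intensity was 81.7, 21.9, 118 and 12.2 in sets 1 to 4. With mesoderm it was 164, 49.9, 189.9 and 42.8. Each set was higher with mesoderm than alone, yet the groups overlapped, because sets 1 and 3 were high and sets 2 and 4 low in both conditions. The ratio of the highest to the lowest set was 9.67-fold alone and 4.43-fold with mesoderm. The folds were 2.01, 2.28, 1.62 and 3.52 in sets 1 to 4. The log2 difference was 1.18 ± 0.47, with a 95% interval of 0.77 to 1.59 and an adjusted p of 0.0490 within sets, and an adjusted p of 1.00 without the set in the model. The size rests partly on dim values. In the endoderm alone, 19 of the 44 negative controls were at least as bright in set 2 and 37 in set 4. On the array with mesoderm the numbers were 2 and 10. In sets 1 and 3, the brighter ones, the ventx2.2 signal with mesoderm exceeded all negative controls.

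The call was close to the threshold and moved with the sets and with the scaling. With the set as a random effect its adjusted p in limma was 0.280, and 0 members and 0.362% of all probe sets were called higher. After cyclic loess its adjusted p was 0.0605 within sets, where 0 members and 0.0839% of all probe sets were called higher. The mean of the negative controls itself differed between conditions by -0.11, 0.10, -0.15 and 0.33 in sets 1 to 4, and with each array centred on that mean the difference of ventx2.2 was 1.13, with an adjusted p of 0.242 within sets. Within sets the adjusted p was 0.00377 without set 4, the set with the widest spread of differences over all probe sets (SD 0.528 against 0.25 to 0.331). It was 0.214 without set 1, 0.254 without set 2 and 0.0684 without set 3. The difference ranged from 0.60 to 1.70 when single arrays or sets were left out, lowest without the array alone of set 4.

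Ventx1.1, first described as PV.1, is likewise a ventral repressor induced by BMP. In endoderm alone it read 198, 91.6, 154 and 95 in sets 1 to 4. With mesoderm present it reached 296, 140.0, 209 and 178. Every array lay above all negative controls, every set was higher with mesoderm, and sets 1 and 3 were again the higher ones. The difference was 0.64 ± 0.20, with folds between 1.36 and 1.88 and a 95% interval of 0.36 to 0.91 within sets. It did not pass in limma, with an adjusted p of 0.103 within sets and of 1.00 when the set was left out of the model. Leaving out set 4 brought the adjusted p within sets to 0.0318, and leaving out set 1, 2 or 3 to 0.426, 0.512 and 0.198. Measured against the other probe sets, the difference of ventx1.1 was larger than that of 98.4%, 98.1%, 94.4% and 98.2% of them in sets 1 to 4.

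Ventx2.1, a paralog that shares synonyms with ventx2.2, had 3 probe sets, which are told apart here by the ends of their names, and their differences were unequal. The one ending in _s_at carries the suffix Affymetrix gives to probes shared by several transcripts, so it may also read related ventx RNA. Alone, the intensity was 1685, 844, 2608 and 352 in sets 1 to 4. Endoderm from intact explants gave 2280.0, 1384, 3248 and 1018. All 4 sets were higher with mesoderm, by 1.35-fold, 1.64-fold, 1.25-fold and 2.89-fold, and the groups overlapped. Its difference was 0.75 ± 0.55, with an adjusted p of 0.234 within sets and 1.00 without the set in the model. The difference was 0.22 to 1.18 with single arrays or sets left out, lowest without the array alone of set 4.

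The plain _at probe set of ventx2.1 is listed with the same GenBank entry and carries no such suffix. Cultured alone, its intensity was 456, 261, 469 and 142 in sets 1 to 4. With mesoderm it was 511, 295, 455 and 268. Sets 1 to 3 hardly moved, and set 4 stood 1.89-fold higher. Its difference was 0.30 ± 0.42 (adjusted p 0.659 within sets), and it turned to -0.054 without the array alone of set 4.

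The _x_at probe set of ventx2.1, named Xbr-1b in the file, has a suffix that warns of probes similar to other sequences. In endoderm alone it read 1242, 974, 1108 and 673. With mesoderm present it reached 1174, 1319, 1375 and 696. Sets 2 and 3 were higher with mesoderm, set 4 was nearly level and set 1 slightly lower. The difference was 0.18 ± 0.24, with a 95% interval of -0.11 to 0.47 and an adjusted p of 0.754 within sets. With single arrays or sets left out it ranged from 0.00092 (without the array alone of set 4) to 0.40. RefSeq lists the name Xbr-1b with the S homeolog and the gene ID with the L homeolog of ventx2.1. The part of the homeologs in these unequal differences was not tested.

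**Figure D2:**
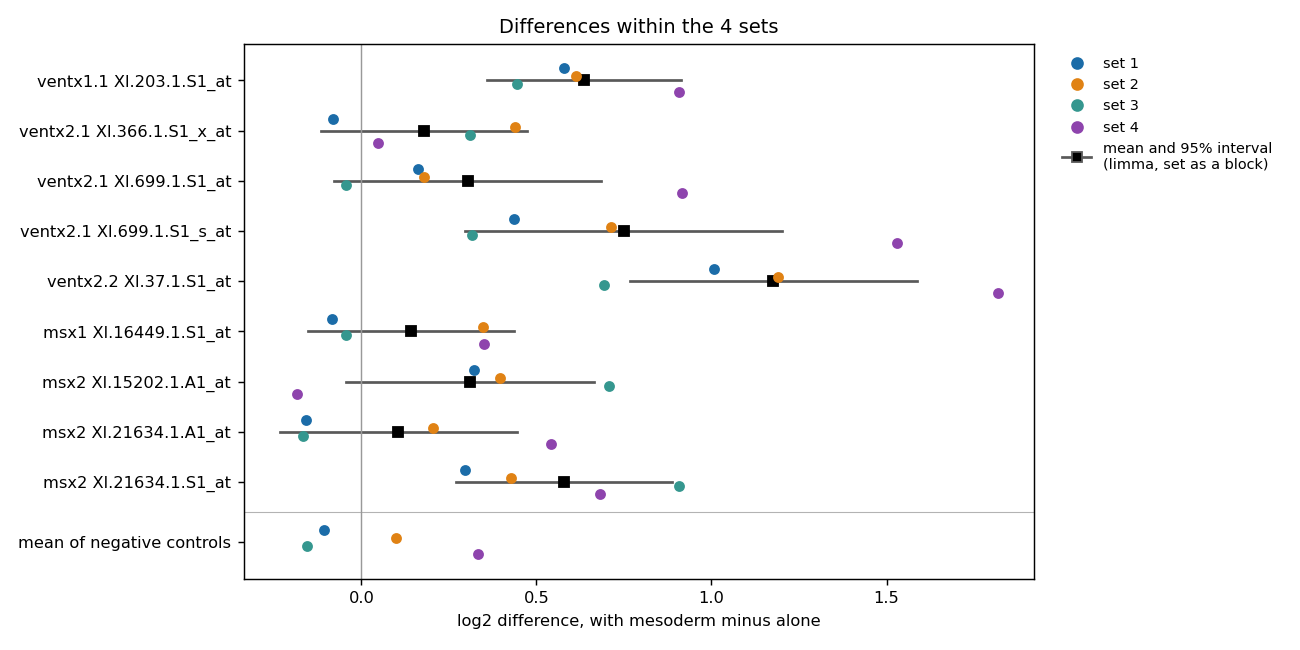
Log2 difference, with mesoderm minus alone (horizontal axis), of the 9 probe sets in each of the 4 sets (coloured points), with the mean and 95% interval from the within-set limma model (square and bar). The bottom line gives the difference of the mean of the 44 negative controls in each set. The intervals of ventx1.1, the _s_at probe set of ventx2.1, ventx2.2 and the S1_at probe set of msx2 lie above 0, and set 4 gave the highest value for each Ventx probe set but the _x_at one.

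Msx1 was measured close to background. Alone, the intensity was 78.7, 62.0, 80.3 and 72.0 in sets 1 to 4. Endoderm from intact explants gave 74.3, 78.9, 77.9 and 91.8. Only the array with mesoderm of set 2 exceeded all 44 negative controls, while 1 or 2 of them were at least as bright on the other arrays, and 2 sets were higher and 2 lower with mesoderm. The difference was 0.14 ± 0.24 (adjusted p 0.809 within sets), and its 95% interval of -0.15 to 0.44 allows up to 1.35-fold higher and, on the lower side, a level of 0.900 of that alone. The interval holds for the signal on the array, which near background understates a change in RNA.

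Msx2 had 3 probe sets, and the one ending in S1_at was higher in all 4 sets. In endoderm alone this probe set read 70.0, 52.9, 79.0 and 54.3 in sets 1 to 4. With mesoderm it was 85.9, 71.2, 148 and 87.1. The array with mesoderm of set 3 stood out as the highest and was the 1 array above all negative controls. The difference was 0.58 ± 0.27, with a 95% interval of 0.27 to 0.89 within sets. It came to 0.36 without the array with mesoderm of set 3. In limma the adjusted p came to 0.177 within sets and to 1.00 when the set was left out of the model, where its unadjusted p was 0.0419. This probe set held the largest share of variation between conditions of the 9, at 43.8% of its sum of squares.

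The other msx2 probe sets moved less and not together. The dimmest, an A1_at probe set, read 29.6, 27.4, 38.7 and 22.6 alone in sets 1 to 4. With mesoderm it read 37.0, 36.0, 63.1 and 19.9, so that sets 1 to 3 were higher and set 4 lower. On every array between 2 and 25 of the 44 negative controls were at least as bright. Its difference was 0.31 ± 0.37 (adjusted p 0.615 within sets), which became 0.041 when set 3's array with mesoderm was left out. The other A1_at probe set, listed with an older Hhox name as well, read 75.9, 50.9, 81.1 and 59.0 alone. With mesoderm it read 68.0, 58.6, 72.3 and 85.9, higher in 2 sets and lower in 2. Its difference was 0.11 ± 0.34 (adjusted p 0.887 within sets), and 1 or 2 negative controls were at least as bright on every array.

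For the Ventx probe sets, more of the sum of squares lay between sets than between conditions. There are more sets than conditions, and the shares are not corrected for this. Of the sum of squares of ventx2.2 over the 8 arrays, 77.4% lay between sets and 20.2% between conditions. For ventx1.1 the shares were 62.6% and 34.9%. For the 3 ventx2.1 probe sets they were 79.2% to 86.8% and 5.71% to 14.9%. Over all tested probe sets the medians were 73.6% and 4.21%, so the share between sets in the Ventx genes is not far from that of the array as a whole. Msx1 had the lowest share between sets of the 9, 29.8%, with 47.6% left to neither sets nor conditions.

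**Figure D3:**
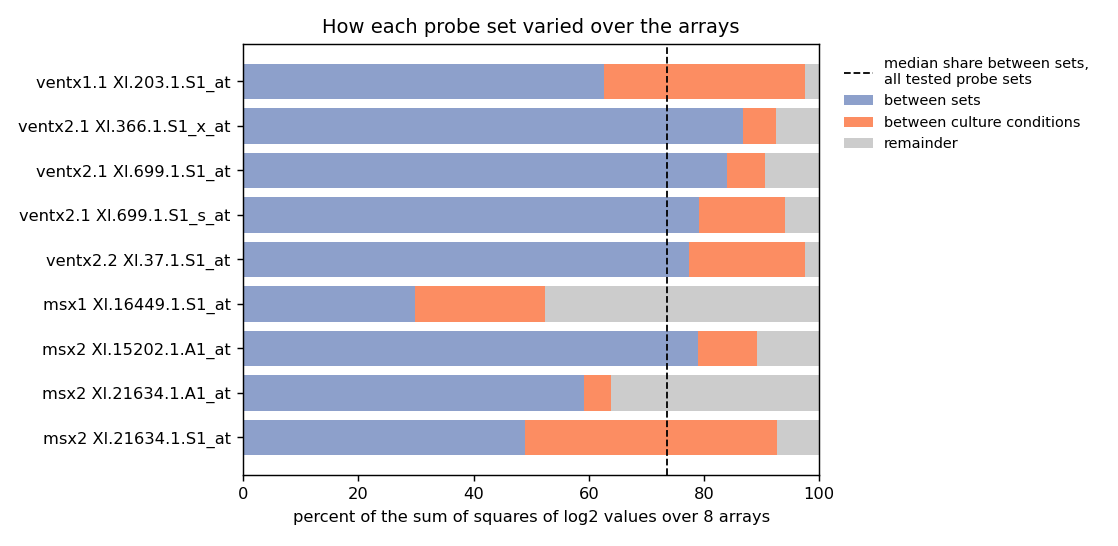
Percent of the sum of squares of the log2 values over 8 arrays (horizontal axis) that lies between sets, between culture conditions and in the remainder, for each of the 9 probe sets. The dashed line marks the median share between sets over all tested probe sets, 73.6%. Of the 5 Ventx bars, 4 pass this line, and the share between conditions is widest for the S1_at probe set of msx2.

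The Ventx probe sets were positively correlated over the 8 arrays, which share 4 sets and therefore do not give independent points. Pearson's r between ventx2.2 and the 3 ventx2.1 probe sets was 0.97 for _s_at, 0.95 for the plain _at and 0.74 for _x_at. The _s_at probe set may also read related ventx RNA. Eif5, a gene outside this family, had an r of 0.98 with it, so such an r is not particular to Ventx genes. Ventx1.1 had an r of 0.87 with ventx2.2 and of 0.48 to 0.80 with the ventx2.1 probe sets. Msx1 had an r of -0.07 to 0.50 with the 5 Ventx probe sets, and 0.86 with the Hhox probe set of msx2. Both lie near the level of the brightest negative controls. The differences in sets 1 to 4 were -0.08, 0.35, -0.04 and 0.35 for msx1 and -0.16, 0.20, -0.17 and 0.54 for the Hhox probe set. Those of the mean of the negative controls were -0.11, 0.10, -0.15 and 0.33. The part of this background shift in the r of 0.86 was not tested. The S1_at probe set of msx2 had an r of 0.46 to 0.80 with the Ventx probe sets. Sizzled (szl), a secreted BMP target that restrains tolloid proteases, had an r of 0.84 with ventx2.2, 0.82 with the _s_at probe set of ventx2.1, 0.83 with the S1_at probe set of msx2, 0.69 with ventx1.1 and 0.36 with msx1.

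The genes whose pattern over the 8 arrays was most like each member were sought among named probe sets with a mean log2 of at least 6. For the _s_at probe set of ventx2.1 they were the translation factor gene eif5 (r = 0.981), esg2-A as the file writes it (0.981) and gemin2, of the SMN complex (0.979). For ventx1.1 they were rgs19, a regulator of G-protein signalling (0.951), the nucleoside diphosphate kinase nme2 (0.927) and smad7, a feedback inhibitor of BMP and TGF-beta receptors (0.919). For the S1_at probe set of msx2 they were zranb1 (0.952), the chaperonin subunit tcp1 (0.933) and the RNA helicase eif4a1 (0.932). For msx1 they were cpt1b, of fatty acid import into mitochondria (0.968), arg1, arginase (0.931) and celf2, an RNA-binding protein (0.919). Cpt1b and arg1, like msx1, were near the level of the brightest negative controls, with a mean log2 of 6.38 and 6.01. The brightest negative control had a log2 of 6.12 to 6.77 on the different arrays, and the mean of the negative controls was 4.25 to 4.72. Ventx2.2 lay below the level limit and was not matched. The differences with mesoderm of these 12 genes ranged from 0.10 to 0.62, and none passed within sets.

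A Ventx gene outside the 6, ventx3.2 (Xvex-1), sits in the same gene row and was added after its values were seen. Cultured alone, its intensity was 84.7, 46.3, 152 and 58.3 in sets 1 to 4. With mesoderm present it reached 63.3, 46.0, 112 and 77.8, so that sets 1 and 3 were lower, set 2 level and set 4 higher. The difference was -0.11 ± 0.40, with a 95% interval of -0.49 to 0.26 and an adjusted p of 0.889 within sets. It exceeded all negative controls on 2 of 8 arrays, and its difference from ventx2.2 was not tested.

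Szl passed within sets in all 3 of its probe sets, with differences of 2.37, 2.12 and 2.39 and adjusted p from 0.0166 to 0.0331. Without the set in the model their adjusted p were 0.964 to 1.00. After cyclic loess within sets they were 0.0421, 0.0828 and 0.0634, so that 1 of the 3 passed, and with the set as a random effect the probe set at 2.12 was lost, with an adjusted p of 0.0564. The szl probe set that lay above all negative controls on 8 arrays read 157, 132, 732 and 88.3 alone and 1323, 919, 2176 and 360.3 with mesoderm.

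Around the Ventx and Msx genes, 67 further genes of the BMP pathway, its opponents and related homeobox families were measured, and szl was the 1 that passed within sets. None passed without the set in the model. Of 11 ligands and receptors, 9 were measured, 4 lay above 0, 0 passed within sets and the median was -0.02. The type I receptor bmpr1a differed by -0.06 ± 0.61 and the type II receptor acvr2b by 0.10 ± 0.32, while the ligand bmp4, named after its values were seen, differed by 0.37 ± 0.58 (adjusted p 0.674 within sets). Of the Smads that carry the signal, 4 were measured, with a median of -0.02, smad1 at 0.05 ± 0.18 and smad4 at -0.08 ± 0.19. At an unadjusted p under 0.05 within sets, 0 ligands or receptors and 1 Smad, higher, would have been counted.

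The list of feedback inhibitors and Id genes had a median of 0.29, with 5 of 7 above 0 and 1, szl, passing (3 higher and none lower by unadjusted p within sets). The 2 brightest, id2 and id3, which block basic helix-loop-helix factors and are BMP targets like the Ventx genes, differed by -0.20 and -0.18 and did not pass. Named after their values were seen, smad7 differed by 0.62, id4 by 0.51 and bambi by 0.29, and these did not pass either. The antagonists and their proteases had a median of 0.13, with 7 of 10 above 0 and 0 passing within sets, where an unadjusted p under 0.05 was reached by 2 on the higher and 2 on the lower side. The brightest were the tolloid-like protease tll1, at -0.59 ± 0.27 (adjusted p 0.172 within sets), and bmp1, at 0.15 ± 0.34. Only 2 of these 10 lay above every negative control on all 8 arrays. The medians of this list in sets 1 to 4 were 0.0005, 0.11, -0.25 and 0.55. The mean of the negative controls differed by -0.11, 0.10, -0.15 and 0.33. The part of this background shift in the antagonist list was not tested.

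Dorsal and anterior transcription factors, the kind of gene that Ventx proteins hold down in the gastrula, had a median of 0.06, with 7 of 10 above 0 and 0 passing (1 higher at an unadjusted p under 0.05). Not, a homeobox gene of the notochord, differed by 0.20 ± 0.37 and the forkhead gene foxa4 by -0.05 ± 0.18. Gsc, named after its values were seen, exceeded all negative controls on 0 of 8 arrays. Its mean log2 value was 5.75, while the mean of the negative controls was 4.25 to 4.72 on the different arrays. Gsc differed by -0.006 ± 0.19 (adjusted p 0.992 in limma within sets). This value is from the brightest of 4 gsc probe sets, of which 0 passed within sets. Near background the signal understates a change in RNA, so a rise or a fall in gsc RNA may be understated here. Ventral and posterior partners had a median of 0.10, with 9 of 11 above 0 and 0 passing (2 higher at an unadjusted p under 0.05). Of these, the T-box repressor tbx3 differed by 0.08 ± 0.22 and gata2, a ventral and blood factor, by 0.15 ± 0.38. Only 2 of the 10 dorsal and 3 of the 11 ventral genes lay above every negative control on all 8 arrays. The dorsal medians in sets 1 to 4 were -0.09, 0.11, -0.05 and 0.43, and the ventral ones -0.12, 0.10, -0.02 and 0.50. The mean of the negative controls differed by -0.11, 0.10, -0.15 and 0.33. The part of this background shift in both lists was not tested.

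Of the other NK-like and distal-less homeobox genes, the relatives of Msx, 17 were measured and all 17 lay above 0, with a median of 0.14 and 0 passing in limma within sets (1 higher at an unadjusted p under 0.05). Only 2 of these 17 lay above every negative control on all 8 arrays. Their medians in sets 1 to 4 were -0.09, 0.18, 0.03 and 0.52, beside means of -0.11, 0.10, -0.15 and 0.33 for the negative controls. The part of this background shift in the list was not tested. Nkx2-3 and nkx2-5, factors of pharyngeal endoderm and heart, differed by 0.23 ± 0.55 and 0.47 ± 0.74. Over all tested probe sets 51.6% lay above 0.

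**Figure D4:**
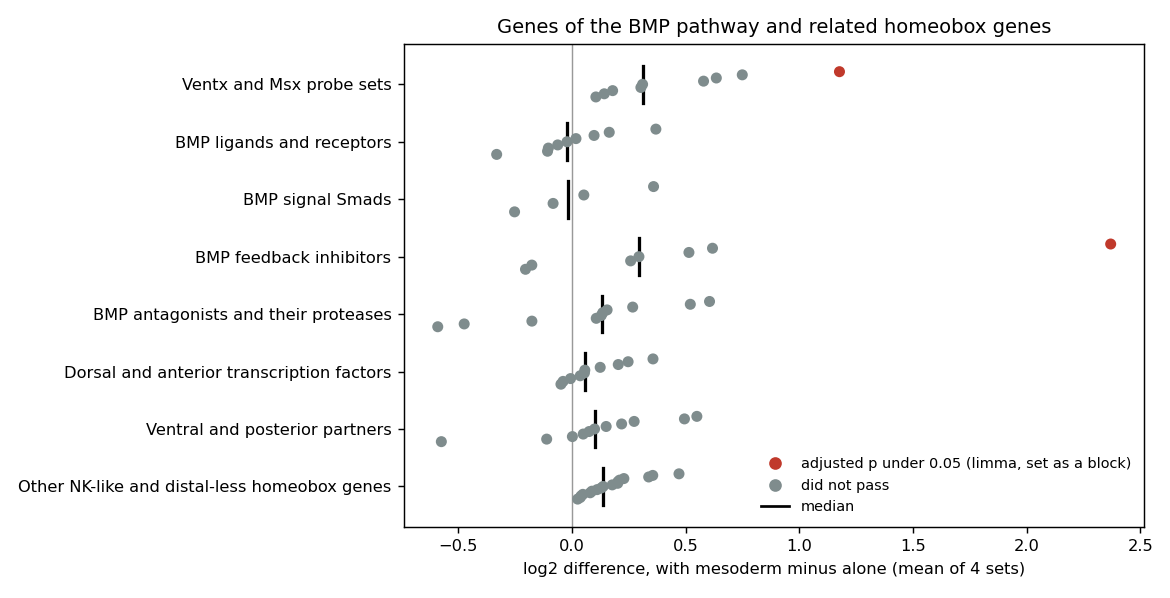
Log2 difference, with mesoderm minus alone, as the mean of 4 sets (horizontal axis), for the 9 Ventx and Msx probe sets and for the measured genes of 7 related lists, 1 probe set per gene. Black bars are medians, and red points passed at an adjusted p under 0.05 within sets in limma: ventx2.2 at 1.18 and szl at 2.37.

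Other tissues that also use Ventx or Msx genes could travel with dissected endoderm, so their markers were read on the same arrays. Neural crest and neural markers had a median difference of 0.12, with 11 of 14 above 0 and 0 passing. Their summed intensity was 2106 to 3672 alone and 2160.4 to 3023 with mesoderm. The crest factors sox10, snai2 and foxd3 exceeded all negative controls on 0 of 8 arrays, while sox11 and sox2 did on 8, snai1 on 7 and sox3 on 6. Sox11, the brightest of the list, differed by -0.07 ± 0.39. Cardiac and lateral plate markers had a median of 0.14, with 12 of 14 above 0, 0 passing, and sums of 1457 to 2636 alone and 1633 to 2934 with mesoderm. Hand1, foxf1 and the heart muscle genes tnni3, myl7 and tnnt2 exceeded all negative controls on 0 of 8 arrays. Bmp4, gata4, tbx2, hand2 and myh6 of the same list exceeded them on 8 arrays and nkx2-5 on 7. Only 2 of the 14 crest and neural and 5 of the 14 cardiac genes exceeded them on all 8. The crest and neural medians in sets 1 to 4 were -0.01, 0.05, 0.09 and 0.47, and the cardiac ones 0.005, 0.21, -0.03 and 0.47. The mean of the negative controls differed by -0.11, 0.10, -0.15 and 0.33. The part of this background shift in both lists was not tested.

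Somite, muscle and notochord markers had a median of 0.13, with 10 of 13 above 0, 0 passing, and sums of 5879 to 9753 alone and 3962 to 9178 with mesoderm. Only 3 of these 13 lay above every negative control on all 8 arrays. Their medians in sets 1 to 4 were -0.04, 0.09, -0.09 and 0.66. Myod1 and myf5 were above all negative controls on 0 of 8 arrays, while pax3, not and foxa4 were so on 8 and shh on 7. Pax3, the brightest of the list, differed by -0.54 ± 0.34 (adjusted p 0.247 in limma within sets). This value is from the brightest of 5 pax3 probe sets, which the file names only by a gene ID. None of the 5 passed within sets. Its mean log2 was 12.1, beside 8.22 for the next gene, shh, so the sum of this list is mostly that 1 probe set. Epidermal markers had a median of 0.06, with 7 of 10 above 0, 0 passing, and sums of 7510 to 16184 alone and 8245 to 14658 with mesoderm. Only 2 of these 10 lay above every negative control on all 8 arrays. Their medians in sets 1 to 4 were 0.03, 0.20, -0.01 and 0.19. Tp63 and foxi1 did not rise above all negative controls on any array, while the keratins krt8.1 and krt70 did on 8. Krt8.1, the brightest of the list, differed by -0.10 ± 0.33. Its mean log2 was 13.4, beside 10.2 for krt70 and 6.12 for the next gene, tfap2a, so the epidermal sum is mostly krt8.1. Red cell and endothelial markers had a median of 0.17, with 10 of 10 above 0, 0 passing, and sums of 643 to 894 alone and 876 to 1110 with mesoderm. Only 1 of these 10 lay above every negative control on all 8 arrays. Their medians in sets 1 to 4 were -0.14, 0.19, 0.08 and 0.47, beside means of -0.11, 0.10, -0.15 and 0.33 for the negative controls. The part of this background shift in the somite, epidermal and red cell lists was not tested. Hba1, the red cell globin, exceeded all negative controls on 0 of 8 arrays, while lmo2 did on 8, aplnr on 6 and gata1 on 5. Lmo2, the brightest of the list, differed by 0.71 ± 0.36 (adjusted p 0.139 in limma within sets). At an unadjusted p under 0.05 in limma within sets, 1 gene was higher in each of the crest and neural, cardiac and epidermal lists, 2 in the red cell and endothelial list and 0 in the somite list, where 1 was lower.

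Myeloid markers had a median of 1.19, with 8 of 8 above 0. Within sets 4 of the 8 passed, lcp1, prtn3, csf2rb and fcrg, with adjusted p from 0.0292 to 0.0490, and without the set in the model 0 passed, with adjusted p from 0.171 to 0.904 for these 4. The adjusted p within sets was 0.174 for mpo, 0.763 for cebpa, 0.913 for lyz and 0.705 for ptprc. Their summed intensity was 727 to 2261 alone and 2101 to 5025 with mesoderm. Mpo, the myeloperoxidase gene, was above all negative controls on 8 arrays, while lyz and ptprc were so on 0. The medians of the myeloid list were 0.77, 1.61, 1.57 and 0.68 in sets 1 to 4, against 1.01, 1.19, 0.69 and 1.82 for ventx2.2. The part of the myeloid RNA in the Ventx values was not tested.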

How the data were processed

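The tables the authors deposited give linear RMA intensity for each probe set. RMA, a method of background correction, quantile normalization and summary, is named in the submitters' processing notes, without a version. The header names 2 data sets, so the arrays may have been processed together with others. The annotated table and the series matrix were identical in 124888 of 124888 cells. Log2 of each intensity was tested in limma 3.58.1 in R 4.3.3 over 15491 probe sets (120 controls left out), with Benjamini-Hochberg adjustment, a threshold of 0.05, and no further term; the set as a block was an alternative. The set numbers come from the labels, and the deviations of the 2 arrays of a set correlated at 0.84, 0.85, 0.69 and 0.32, each above 0.1. Names came from RefSeq symbols, synonyms or gene IDs; 4 members matched by symbol, 3 by synonym and 2 by gene ID. Lists used the brightest probe set of a gene. All members were named, with the called and the 2 brightest genes of each pathway list and the 3 genes most alike in pattern. Members and lists were chosen with earlier results of these data known. The fit was run on simulated data with planted shifts larger than any member's difference. That run does not show how many changes of the sizes reported here would be found. The number of arrays limits the precision.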

Additional observations from a re-analysis of the deposited data

How the results depend on the processing

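Without the set in the model, limma called 0 of the 9 Ventx and Msx probe sets. It also called 0 of all 15491 probe sets in either direction, so this 0 is not particular to the members. Limma still called 0 of the 9 under the trended and robust variance, array weights, renewed quantile normalization, cyclic loess and both centrings. The filter on dim probe sets, a threshold of 0.1, the series matrix values and a pseudocount of 16 gave 0 as well. With the set as a block (pairing by replicate number) limma called 1, ventx2.2, also with each array centred on its median. A threshold of 0.1 with the block added no further member. Without set 4 the block fit called 2, ventx2.2 and ventx1.1. Leaving out arrays or sets, with or without the block, thus gave 0 to 2. The share of all probe sets called was not counted without set 4, nor for the block with either centring, a threshold of 0.1 or the pseudocount. Whether the member counts in those fits are particular to the members cannot be told. Limma called 0 with the set as a random effect, where 56 of all probe sets (0.362%) were called higher. With the block it also called 0 after cyclic loess, with negative-control centring and with a pseudocount of 16 (adjusted p of ventx2.2 then 0.0781). Ventx2.2 and the dimmest msx2 probe set fall below the filter on dim probe sets, so no value could be had for them there. The block raised the pathway genes called higher from 0 to 1, or 3 over all probe sets (those of szl), and the marker genes from 0 to 4, with 0 lower in each. Directions held for 7 of the 9 members throughout; the plain _at probe set of ventx2.1 ranged from -0.054 (without the array alone of set 4) to 0.52 with single arrays or sets left out, and the Hhox probe set of msx2 from -0.040 (without set 4, with and without the block; -0.017 without the array alone of set 2) to 0.21. The cause was not tested. The block combined with centring, filter, threshold or pseudocount was chosen after seeing the data. Background limits ventx2.2 and the dimmest msx2 probe set most; msx1 and the other msx2 probe sets lie below only the brightest few negative controls.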
